A study of Mus musculus with 44 samples.

Results

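The genes described are 10 neighbours of Cdx2 on mouse chromosome 5, namely Urad, Rasl11a, Pan3, Polr1d, Lnx2, Mtif3, Gtf3a, Pomp, Usp12 and Rpl21. They were chosen by name and position, with earlier results of these data known, and are not simply the nearest genes. The table holds 9 other genes within 1 Mb of Cdx2. Among those, Pdx1 lies nearer to it than all of the 10 but Urad. All 10 have a row among the 19733 gene symbols of the count table. RNA-seq was done on organoids, which are epithelial cultures grown from tissue in a gel, from C57BL/6 mice, in 20 libraries that form a pair of separate experiments. In the enhancer experiment, organoids of the stomach antrum were homozygous for a deletion of an enhancer 3' of Cdx2, heterozygous for it, or wild type, with 3 libraries each. All 9 of these libraries overexpressed HNF4A, the wild-type ones included, and the study made the deletion in the mouse germline with CRISPR-Cas9. The other experiment, called the lines here, compared gastric organoids with a lentivirus for CDX2, HNF4A or GFP (3 libraries each), and small intestine organoids gave 2 libraries. The sources used here do not state whether replicates came from separate mice or whether a line is a clone, so p-values measure the spread between libraries. The question put to these genes was whether losing the enhancer changes their expression as well as that of Cdx2.

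Cdx2 is a homeobox transcription factor that sets intestinal identity in the epithelium of the gut and is silent in the normal stomach. Enhancers act on promoters over a distance within a stretch of folded chromatin, so one enhancer can in principle serve more than one gene. Most of the genes beside Cdx2 are used by nearly every cell. Rpl21 encodes a protein of the large ribosomal subunit, Polr1d a subunit shared by RNA polymerases I and III, and Gtf3a a transcription factor that RNA polymerase III needs at a class of ribosomal RNA genes. Mtif3 is an initiation factor of mitochondrial translation, Pomp a chaperone of proteasome assembly, Pan3 a subunit of a deadenylase that trims mRNA tails, Usp12 a deubiquitinase and Lnx2 a ubiquitin ligase with PDZ domains. Urad is a decarboxylase of the urate breakdown pathway, and Rasl11a is a small GTPase of the Ras family.

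Urad is the nearest of the 10, with its gene body at chr5:147314984-147322440 in GRCm38.p6 and 7.735 kb between it and the body of Cdx2 at chr5:147300900-147307249. Cdx2 lies on the minus strand, so its 3' side faces Pdx1 and, beyond it, Polr1d (chr5:147076715-147111361), Lnx2 (chr5:147016655-147076572), Mtif3 (chr5:146951573-146963855), Gtf3a (chr5:146948657-146955614), Rasl11a (chr5:146845071-146847726), Rpl21 (chr5:146832890-146837032) and Usp12 (chr5:146734809-146794956). Pan3 (chr5:147426208-147548501) and Pomp (chr5:147860628-147875784) lie on the other side, as Urad does. Lnx2 and Polr1d stand head to head with 143 bases between their bodies. The bodies of Gtf3a and Mtif3 overlap by 4042 bases, and since no source used here states the strand setting of the counting, reads in the overlap may be shared between them. For the deleted enhancer, the sources used here state no position.

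Promoter windows of 300 bases (250 before to 50 after the annotated start, RefSeq, GRCm38.p6) were matched for 8 of the 10 genes and for Cdx2. Shown are the target gene, the pair of neighbours that were near 0 in the stomach, the neighbour with the smallest p in small intestine organoids, and Pomp. Capitals mark the only match in the 8 neighbours' windows to the CDX motif TTTATNG.

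Cdx2 (chr5:147307200-147307499, minus strand): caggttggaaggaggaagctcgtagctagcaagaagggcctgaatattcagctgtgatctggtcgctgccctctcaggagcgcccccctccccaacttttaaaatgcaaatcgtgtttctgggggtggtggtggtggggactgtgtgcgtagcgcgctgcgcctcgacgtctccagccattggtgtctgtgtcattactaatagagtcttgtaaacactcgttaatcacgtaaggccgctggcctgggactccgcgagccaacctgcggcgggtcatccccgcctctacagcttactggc

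Urad (chr5:147322391-147322690, minus strand): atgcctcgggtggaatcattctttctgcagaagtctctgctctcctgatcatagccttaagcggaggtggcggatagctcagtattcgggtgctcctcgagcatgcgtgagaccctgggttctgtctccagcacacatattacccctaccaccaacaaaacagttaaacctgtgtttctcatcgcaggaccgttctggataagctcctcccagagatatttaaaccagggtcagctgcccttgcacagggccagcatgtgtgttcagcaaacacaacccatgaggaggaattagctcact

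Rasl11a (chr5:146844821-146845120, plus strand): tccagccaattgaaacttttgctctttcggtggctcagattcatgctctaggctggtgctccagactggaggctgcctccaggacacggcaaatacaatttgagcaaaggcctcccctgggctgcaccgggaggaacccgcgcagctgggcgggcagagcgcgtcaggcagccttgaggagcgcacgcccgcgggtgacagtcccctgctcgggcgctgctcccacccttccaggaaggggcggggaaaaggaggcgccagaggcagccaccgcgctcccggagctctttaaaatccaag

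Usp12 (chr5:146794907-146795206, minus strand): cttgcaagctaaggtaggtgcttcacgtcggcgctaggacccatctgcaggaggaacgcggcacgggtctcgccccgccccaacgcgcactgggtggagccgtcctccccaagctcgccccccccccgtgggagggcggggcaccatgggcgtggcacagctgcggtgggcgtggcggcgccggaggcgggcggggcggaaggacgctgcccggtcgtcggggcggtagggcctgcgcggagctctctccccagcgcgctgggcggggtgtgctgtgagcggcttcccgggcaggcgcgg

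Pomp (chr5:147860378-147860677, plus strand): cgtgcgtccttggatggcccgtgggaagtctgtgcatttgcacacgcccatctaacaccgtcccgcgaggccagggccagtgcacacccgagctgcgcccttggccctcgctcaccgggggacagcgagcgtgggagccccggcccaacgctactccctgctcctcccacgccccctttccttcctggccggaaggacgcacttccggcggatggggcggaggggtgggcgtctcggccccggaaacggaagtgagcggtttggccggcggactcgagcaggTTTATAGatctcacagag

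The CDX motif TTTATNG, searched on both strands, was present in 9.79% of 14729 promoter windows of the same length, and in 1 of the 8 neighbours' windows. In Pomp the match began 33 bases after the start and overlapped a match to the TATA box motif TATAAA on the other strand. The TATA box motif was present in 12.7% of all windows. The HNF4 motif CAAAGTNCA, present in 1.35% of all windows, was in none of the 8. GC content was 51.3% in the Urad window, 63.7% in that of Rasl11a, 68.0% in that of Pomp and 75.7% in that of Usp12, against a median of 57.7% over all windows. The windows of Polr1d and Pan3 follow an annotated start inside the gene body, downstream of the outer end given above. In these windows the ratio of observed to expected CpG was 0.41 for Urad and 0.31 for Polr1d, lower than in the windows of Rasl11a (0.62), Gtf3a (0.81), Pan3 (0.83), Pomp (0.84), Usp12 (0.87) and Lnx2 (0.91).

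Libraries of the enhancer experiment held 8173640 to 11465309 counts, those of the lines 6180498 to 11007809. Levels are given as CPM, counts scaled to library size with TMM factors, and a count of 3 in a library corresponded to 0.256 to 0.473 CPM. Cdx2 itself had 0.199, 1.36 and 0.585 CPM in homozygous libraries, 18.4, 5.55 and 9.31 CPM in heterozygous libraries and 16.7, 26.8 and 58.5 CPM in wild-type libraries. All homozygous libraries lay below all others, and the log2 fold change of homozygous over wild type was -5.53 ± 0.79 (SE), with an adjusted p of 0.377 in edgeR and 8.75e-11 in DESeq2. Summed fibroblast transcripts were higher in both deletion genotypes. The summed level of 13 fibroblast markers was 39.3 to 1202 CPM in homozygous, 114 to 1394 CPM in heterozygous and 5.85 to 7.82 CPM in wild-type libraries, with Lum at 0 in all 9 libraries and Thy1 at 0 in the homozygous and wild-type ones. Dcn and Acta2 were at most 0.602 CPM in every library. Of the 8 fibroblast markers tested, edgeR and limma voom called 0 in either genotype over wild type, with 8 at an unadjusted p under 0.05, and DESeq2 called 7. The 5 endothelial markers summed to 3.78 to 34.9 CPM in homozygous, 5.24 to 48.2 CPM in heterozygous and 1.145 to 2.16 CPM in wild-type libraries. Fewer cells of a type and less RNA per cell cannot be told apart in such bulk samples. The sums of 7 epithelial markers were 4748 to 7026 CPM in homozygous, 4233 to 7801 CPM in heterozygous and 7166 to 11050 CPM in wild-type libraries. The 11 gastric markers summed to 3630 to 7879 CPM in homozygous, 3650 to 5408 CPM in heterozygous and 2073 to 6474 CPM in wild-type libraries, and to 1.02 to 59.3 CPM in small intestine libraries, where Sox2, Muc5ac and Gast were at 0.

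No tested neighbour was called changed with the enhancer deletion. Of the 10 genes, 8 had enough counts to be tested, and edgeR called 0 of 8 in homozygous against wild-type organoids. That test called 0% of the 12593 genes tested, Cdx2 included, so the intervals of the fold changes carry more information than the calls. All 8 intervals for homozygous over wild type lay within a 2-fold change either way, as did those of 66.7% of all genes tested, and 7 of 8 lay within a 1.5-fold change, against 35.2% of all genes. The median standard error was 0.15 over the 8 and 0.24 over all genes. The shares therefore reflect narrower intervals as well as small changes. Only Rpl21, 1 of the 8, had an unadjusted p under 0.05, against 4.59% of all genes, and DESeq2 and limma voom called 0 of the 8 as well, where DESeq2 called 1.43% of all genes and limma voom 0%. The median log2 fold change was -0.07 over the 8 genes and 0.00 over all genes tested.

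**Figure D1:**
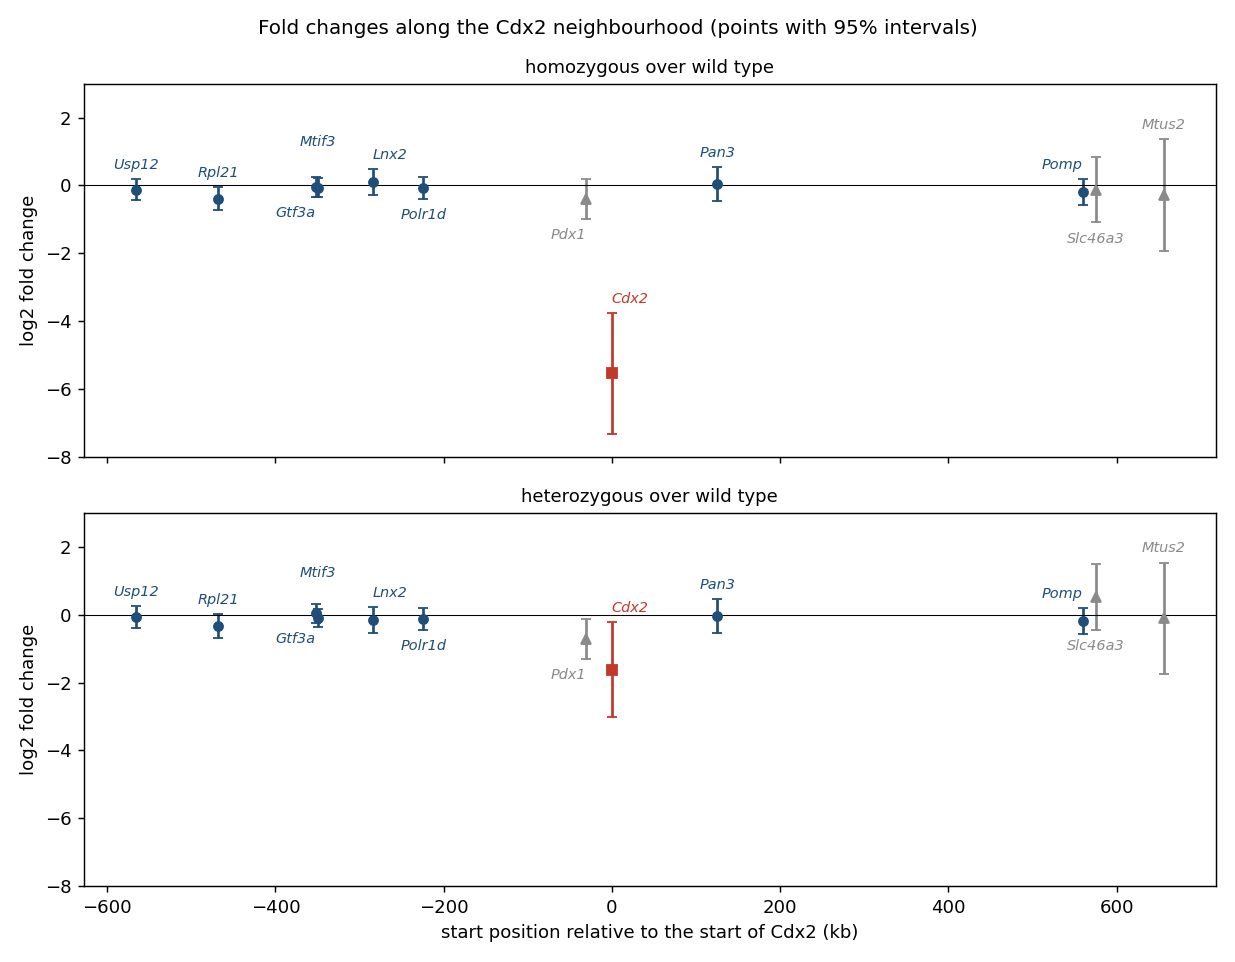
Log2 fold change of each tested gene within 1 Mb of Cdx2 (y axis) against the distance of its start from the start of Cdx2 in kb (x axis), for homozygous over wild type (top) and heterozygous over wild type (bottom). Points are edgeR estimates and bars 95% intervals; circles are the 8 tested neighbours described here, triangles other genes, the square Cdx2. The 8 neighbours lie between -0.39 and 0.11 in the top panel, far from Cdx2 at -5.53.

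Among the chosen neighbours, the closest to Cdx2 with measurable expression were Pan3 on one side and Polr1d and Lnx2 on the other. Pdx1, which was not among those chosen, lies nearer to Cdx2 than these genes. It was expressed at 22.9 to 61.1 CPM in the enhancer experiment and is described below. Pan3 had 57.7, 49.3 and 65.8 CPM in homozygous, 72.7, 43.45 and 47.6 CPM in heterozygous and 46.9, 57.3 and 64.65 CPM in wild-type libraries. The groups overlapped, and the log2 fold change was 0.03 ± 0.22 (SE, n = 3 each) for homozygous over wild type, with an interval from 0.724-fold to 1.45-fold. Polr1d was at 101, 107 and 104 CPM in homozygous, 116, 97.4 and 86.3 CPM in heterozygous and 122, 97.1 and 109.7 CPM in wild-type libraries. The homozygous values sat inside the wild-type range, with a log2 fold change of -0.08 ± 0.15 and an interval from 0.754-fold to 1.19-fold. Lnx2, its head-to-head partner, had 46.2, 51.9 and 40.15 CPM in homozygous, 44.75, 37.6 and 32.2 CPM in heterozygous and 44.9, 38.4 and 44.8 CPM in wild-type libraries. Again the groups overlapped (log2 fold change 0.11 ± 0.17 for homozygous over wild type), and Lnx2 gave the widest gap between the deletion genotypes, 0.27 ± 0.17 for homozygous over heterozygous, with edgeR's adjusted p at 1.

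The overlapping pair Gtf3a and Mtif3, which serve RNA polymerase III and mitochondrial translation, stayed close to wild type. Gtf3a had 76.5, 69.4 and 68.8 CPM in homozygous, 70.5, 82.1 and 75.0 CPM in heterozygous and 74.1, 80.5 and 67.3 CPM in wild-type libraries, and its log2 fold change was -0.05 ± 0.13 for homozygous over wild type. Mtif3 had 82.0, 67.0 and 72.2 CPM in homozygous, 73.15, 70.6 and 73.7 CPM in heterozygous and 79.5, 77.6 and 73.9 CPM in wild-type libraries, and its log2 fold change was -0.06 ± 0.12. The heterozygous values of Mtif3 all lay just below the wild-type ones, with the nearest libraries at 73.7 and 73.9 CPM. Farther out, the deubiquitinase Usp12 had 51.75, 66.5 and 56.3 CPM in homozygous, 58.5, 66.1 and 57.8 CPM in heterozygous and 68.3, 60.8 and 62.2 CPM in wild-type libraries (log2 fold change -0.13 ± 0.14 for homozygous over wild type). The proteasome chaperone Pomp had 76.4, 89.65 and 65.9 CPM in homozygous, 67.9, 85.8 and 80.1 CPM in heterozygous and 105, 78.2 and 82.5 CPM in wild-type libraries (log2 fold change -0.20 ± 0.17). In both genes the genotypes overlapped.

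Of the 8 tested neighbours, Rpl21 was farthest below wild type. Genes of ribosomal proteins have many processed pseudogenes, so its reads may be shared with near-identical copies and its values are uncertain to that extent. It had 579, 595 and 459 CPM in homozygous and 597, 575 and 512 CPM in heterozygous libraries, against 779.7, 736 and 617 CPM in wild-type libraries, so that all 6 deletion libraries lay below all 3 wild-type ones. The same held for 1.41% of all genes tested and for 2 of the other ribosomal protein genes. The log2 fold change was -0.39 ± 0.15 for homozygous over wild type, with an interval from 0.601-fold to 0.975-fold, an unadjusted p of 0.034 and an adjusted p of 0.987 in edgeR. For heterozygous over wild type it was -0.34 ± 0.15, with an adjusted p of 0.562 in edgeR, and for homozygous over heterozygous -0.04 ± 0.15. Leaving out the 3 libraries richest in fibroblast transcripts (homozygous replicate 3 and heterozygous replicates 2 and 3), the log2 fold changes were -0.27 for homozygous and -0.25 for heterozygous over wild type; this leaves 2 homozygous libraries and 1 heterozygous library, so the heterozygous value rests on a single library assumed to vary like the others.

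**Figure D2:**
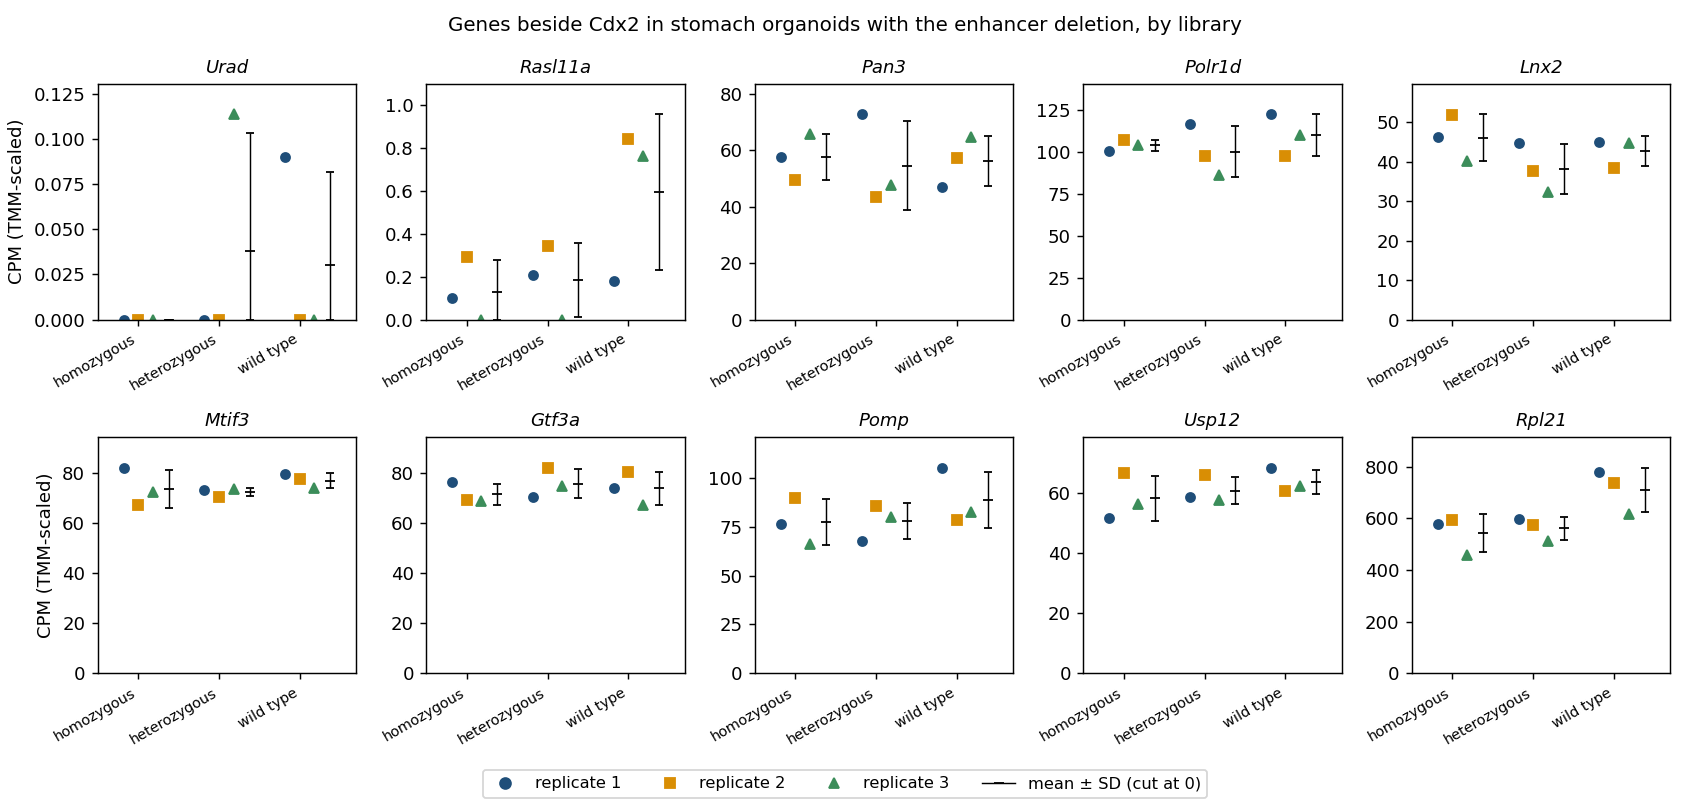
Level of each of the 10 neighbours in CPM scaled by TMM factors (y axis, from 0) in homozygous, heterozygous and wild-type stomach organoids (x axis). Each symbol is a library, numbered by replicate, and bars give the mean and SD, cut at 0; Rpl21 is the only panel in which all 6 deletion libraries lie below all 3 wild-type ones, and Urad and Rasl11a stay below 1 CPM.

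The other genes of its complex were compared with Rpl21 next. Of 75 other ribosomal protein genes tested, 73 had a log2 fold change below 0 for homozygous over wild type, against 49.8% of all genes. Their median was -0.18 and the range -0.67 to 0.01, edgeR called 0 of 75 (10 at an unadjusted p under 0.05), DESeq2 called 1 and limma voom 0, and 5 of the 75 lay lower than Rpl21. With median-of-ratios scaling the count below 0 was again 73 and the median -0.17, and without the 3 libraries richest in fibroblast transcripts they were 73 and -0.16. For heterozygous over wild type, 62 of 75 lay below 0 with a median of -0.09, and 3 lay lower than Rpl21. Rpl21 thus lay on the same side of 0 as most of its list, and near the low end of it in both genotypes. Fibroblast and epithelial transcripts differed between the same libraries, and their part in these shifts was not tested.

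Subunits and assembly factors of the proteasome, the list for Pomp, had a median log2 fold change of -0.12 over 40 genes for homozygous over wild type, with 33 below 0 and 8 lower than Pomp. Without the 3 libraries richest in fibroblast transcripts its median was -0.02 for homozygous over wild type. For heterozygous over wild type it was then -0.27, from 1 heterozygous library, where all libraries gave -0.02. The other subunits of RNA polymerases I and III, the list for Polr1d, had a median of 0.00 over 23 genes, and 9 factors of mitochondrial translation, the list for Mtif3, one of -0.06. In these 3 lists edgeR, DESeq2 and limma voom called 0 genes in either genotype against wild type, with 1 proteasome gene and 0 of the others at an unadjusted p under 0.05 in each.

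**Figure D3:**
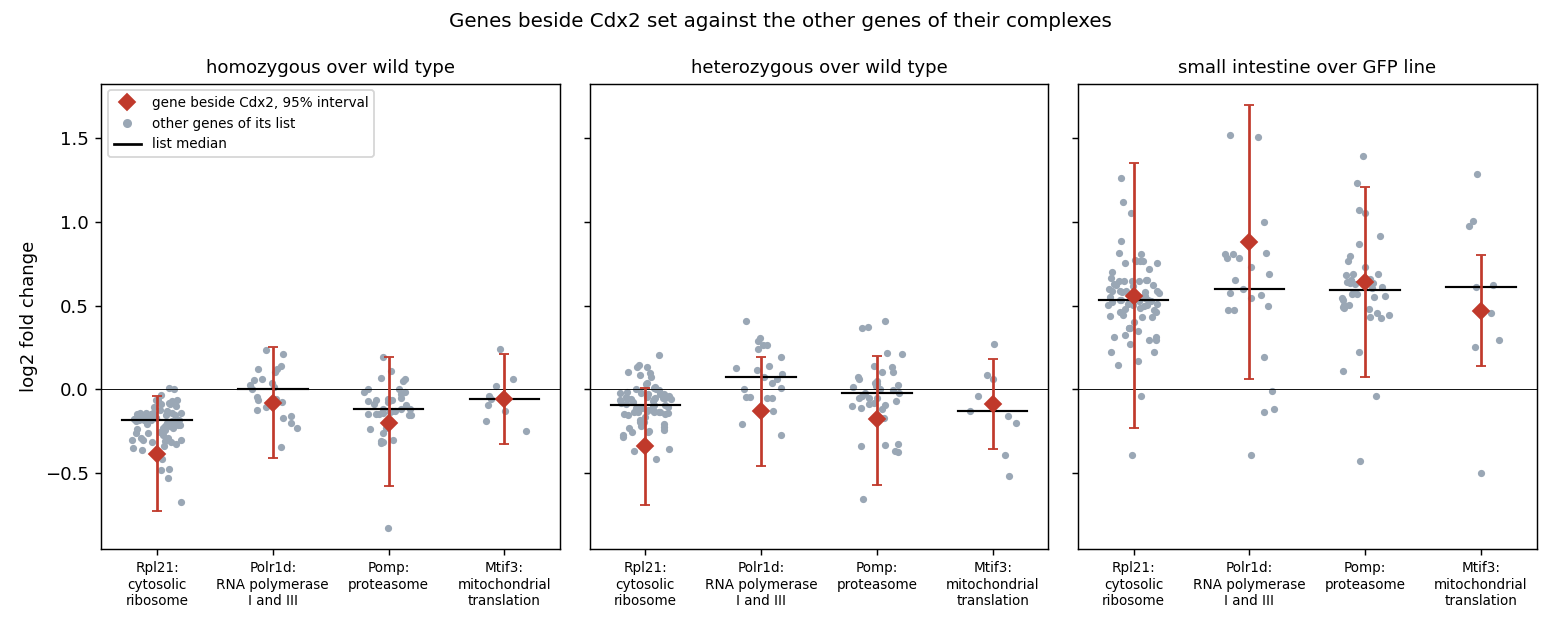
Log2 fold changes (y axis) of Rpl21, Polr1d, Pomp and Mtif3 (diamonds with 95% intervals) beside the other tested genes of their complexes or pathway (dots; black lines are list medians), for homozygous over wild type, heterozygous over wild type and small intestine over GFP line. The ribosomal dots lie mostly below 0 in the first panel (median -0.18), and in the third panel the medians of the 4 lists lie between 0.53 and 0.61, with the diamonds among the dots.

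Against wild type, heterozygous organoids gave a like picture for the neighbours. Cdx2 itself was not called there, with a log2 fold change of -1.62 ± 0.62. Its adjusted p was 0.511 in edgeR, 0.229 in DESeq2 and 0.685 in limma voom. The groups overlapped for Cdx2 too, so a lack of calls says little about the neighbours in this comparison. EdgeR called 0 of the 8 tested neighbours and 0% of all genes, and 0 of the 8 had an unadjusted p under 0.05, against 8.93% of all genes. DESeq2, which called 2.6% of all genes, and limma voom called 0 of the 8. All 8 intervals lay within a 2-fold change, against 62.7% of all genes, with a median standard error of 0.15 over the 8 and 0.25 over all genes. Log2 fold changes of the 8 ran from -0.34 for Rpl21 to 0.04 for Gtf3a. Values of the genotypes did not overlap for 2 of the 8, Rpl21 and Mtif3, against 14.9% of all genes. In homozygous against wild type the figure was 1 of 8, Rpl21, against 8.9% of all genes. In homozygous against heterozygous it was 0 of 8, against 1.95% of all genes, and edgeR, DESeq2 and limma voom called 0 of the 8, where edgeR called 0% and DESeq2 0.00794% of all genes, with 0 of the 8 at an unadjusted p under 0.05, against 0.262% of all genes. The only gene DESeq2 called for homozygous over heterozygous was Cdx2 (adjusted p = 0.000476, DESeq2). A fit on the number of deleted copies called 0 of the 8 and 0% of all genes in edgeR and 0 of the 8 in DESeq2 (0.167% of all genes) and limma voom (0%), with 1 of the 8 (Rpl21) at an unadjusted p under 0.05, against 1.99% of all genes. Its slopes ran from -0.19 ± 0.08 per copy for Rpl21 to 0.06 ± 0.09 per copy for Lnx2, on the log2 scale.

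Urad and Rasl11a could not be tested in the stomach organoids, because their counts were too low. Urad, the gene next to Cdx2, had 0, 0 and 0 counts in homozygous, 0, 0 and 1 in heterozygous and 1, 0 and 0 in wild-type libraries. Rasl11a had 1, 3 and 0 counts in homozygous, 2, 4 and 0 in heterozygous and 2, 7 and 6 in wild-type libraries. For Urad a change was not detectable at this depth. For Rasl11a, scaled by library size, the ratio over wild type was 0.252 in homozygous (95% counting interval 0.0609 to 0.792) and 0.363 in heterozygous libraries (0.115 to 0.990). These intervals cover counting error only, and the libraries overlapped, so the difference was not tested against the spread between libraries.

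Other genes within 1 Mb were taken by position. Pdx1, a homeobox factor of the antrum, duodenum and pancreas, is the next gene on the 3' side of Cdx2. It had 44.7, 38.9 and 27.0 CPM in homozygous, 37.1, 27.9 and 22.9 CPM in heterozygous and 38.7, 46.1 and 61.1 CPM in wild-type libraries. Its log2 fold change was -0.40 ± 0.26 for homozygous and -0.73 ± 0.26 for heterozygous over wild type, with adjusted p-values of 0.999 and 0.488 in edgeR. For heterozygous over wild type the unadjusted p was 0.0203 in edgeR, where 8.93% of all genes had one under 0.05. The interval there ran from 0.402-fold to 0.907-fold. For homozygous over wild type the unadjusted p was 0.159 in edgeR, with an interval from 0.507-fold to 1.14-fold. The heterozygous libraries lay below all wild-type ones, while the homozygous ones overlapped them. Log2 fold changes of the 7 epithelial markers ran from -0.78 to -0.29 (median -0.47) for homozygous over wild type. For heterozygous over wild type they ran from -0.81 to -0.37 (median -0.54). The Pdx1 values lay inside both ranges, and the part of epithelial content in them was not tested. Slc46a3, a lysosomal transporter gene beside Pomp, had a log2 fold change of -0.12 ± 0.43 for homozygous over wild type, and Mtus2 one of -0.28 ± 0.73. Wasf3, Gpr12, Gsx1, Flt3, Flt1 and D5Ertd605e did not have enough counts to be tested.

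In the lentiviral lines, CDX2 and HNF4A were set against GFP to ask what each factor does to gastric cells. Cdx2 was at 200, 288 and 62.0 CPM in the CDX2 lines, 50.7, 29.1 and 22.6 CPM in the HNF4A lines and 282 and 272 CPM in small intestine organoids, against 3.95, 7.44 and 3.185 CPM in the GFP lines. Reads of a lentiviral Cdx2 copy and of the endogenous gene cannot be told apart in this table. No neighbour was called in either line. EdgeR called 0 of 10 for CDX2 over GFP, where it called 0.409% of all 12720 genes tested, and 0 of 10 for HNF4A over GFP, where it called 0.142%. Urad, with 1 count in the CDX2 lines and 0 in the HNF4A and GFP lines, could not have been called in either. Urad and Rasl11a passed the filter on low counts through the groups where they are high. With both set aside, edgeR likewise called none of the remaining neighbours. With line number as a block the same comparisons called 578 and 100 genes in all and again 0 of the 10. Unadjusted p-values under 0.05 were found for 1 of 10 in each, Rasl11a for CDX2 over GFP (11.2% of all genes) and Usp12 for HNF4A over GFP (5.76%). With Urad and Rasl11a set aside, no neighbour had one for CDX2 over GFP. DESeq2 and limma voom called 0 of 10 in both, where they called 3.88% and 0.0314% of all genes for CDX2 over GFP and 1.74% and 0.0393% for HNF4A over GFP.

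Rasl11a had the largest fold of the 10 in the CDX2 lines. It had 23, 10 and 7 counts in the CDX2 lines and 6, 0 and 0 in the HNF4A lines, with 43 and 14 counts in small intestine organoids, against 1, 2 and 0 in the GFP lines. All 3 CDX2 libraries lay above all 3 GFP libraries. Scaled by library size, the ratio of CDX2 to GFP lines was 14.6, with a 95% counting interval from 4.66 to 73.9 that covers counting error only, and the adjusted p was 0.291 in edgeR and 0.0903 with the line number as a block. Lnx2 was the other neighbour whose CDX2 and GFP libraries did not overlap, which made 2 of 10, against 16% of all genes. Rasl11a passed the filter on low counts through the groups where it is high, so its separation carries no weight in that count. With it and Urad set aside, Lnx2 alone remains.

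Lnx2, the ubiquitin ligase that binds the Notch regulator Numb, stood on opposite sides of GFP in the HNF4A and CDX2 lines. It had 28.9, 33.8 and 33.45 CPM in the CDX2 lines, 48.1, 51.3 and 43.1 CPM in the HNF4A lines and 32.5 and 36.0 CPM in small intestine organoids, against 34.25, 40.1 and 39.8 CPM in the GFP lines. The HNF4A libraries lay above and the CDX2 libraries below all GFP libraries, and the log2 fold changes over GFP were 0.32 ± 0.15 for HNF4A and -0.25 ± 0.15 for CDX2, with adjusted p-values of 0.891 and 0.604 in edgeR. Both comparisons share the GFP libraries. A direct comparison of HNF4A over CDX2 lines, chosen after the values were seen, gave 0.57 ± 0.15 with an adjusted p of 0.413 in edgeR, 0.118 with the line number as a block and 0.0354 in DESeq2. EdgeR called 0 of 10 there (2 at an unadjusted p under 0.05, against 5.18% of all genes) and 0.0236% of all genes, limma voom 0 of 10 (0.0157%), and DESeq2 1 of 10 (Lnx2) and 1.09% of all genes. The 2 were Lnx2 and Rasl11a, and Rasl11a passed the filter on low counts through the groups where it is high. Lnx2 and Mtif3 were the neighbours whose HNF4A and GFP libraries did not overlap, 2 of 10 against 11.6% of all genes.

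Usp12 was at 49.5, 45.85 and 51.6 CPM in the CDX2 lines, 70.8, 60.6 and 47.5 CPM in the HNF4A lines and 108 and 91.0 CPM in small intestine organoids, against 45.6, 47.7 and 38.3 CPM in the GFP lines. Each HNF4A library lay above the GFP library of the same line number, while the ranges of the groups overlapped, and the log2 fold change of HNF4A over GFP was 0.44 ± 0.17, with an adjusted p of 0.747 in edgeR. For CDX2 over GFP it was 0.16 ± 0.17.

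The small intestine organoids were the group in which neighbours rose. EdgeR called 5 of 10 for small intestine over GFP lines, all 5 higher, where it called 14.2% of all genes as higher and 27.1% in either direction. Urad and Rasl11a are among these 5 but passed the filter on low counts through the groups where they are high. With both set aside, edgeR called 3 of 8 higher. They were Usp12 and the overlapping genes Gtf3a and Mtif3, which may share reads and so may not count separately. Usp12 gave the smallest p, with a log2 fold change of 1.18 ± 0.19 (2.27-fold, interval 1.69 to 3.05) and an adjusted p of 0.00345 in edgeR. Both small intestine libraries lay above all 9 gastric libraries. Among the partners of Usp12, its activator Wdr48 had a log2 fold change of -0.20 ± 0.17 and its paralog Usp46 one of -0.45 ± 0.22, neither called, while the related deubiquitinase Usp1 rose by 1.56 ± 0.24 (adjusted p = 0.00267, edgeR).

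**Figure D4:**
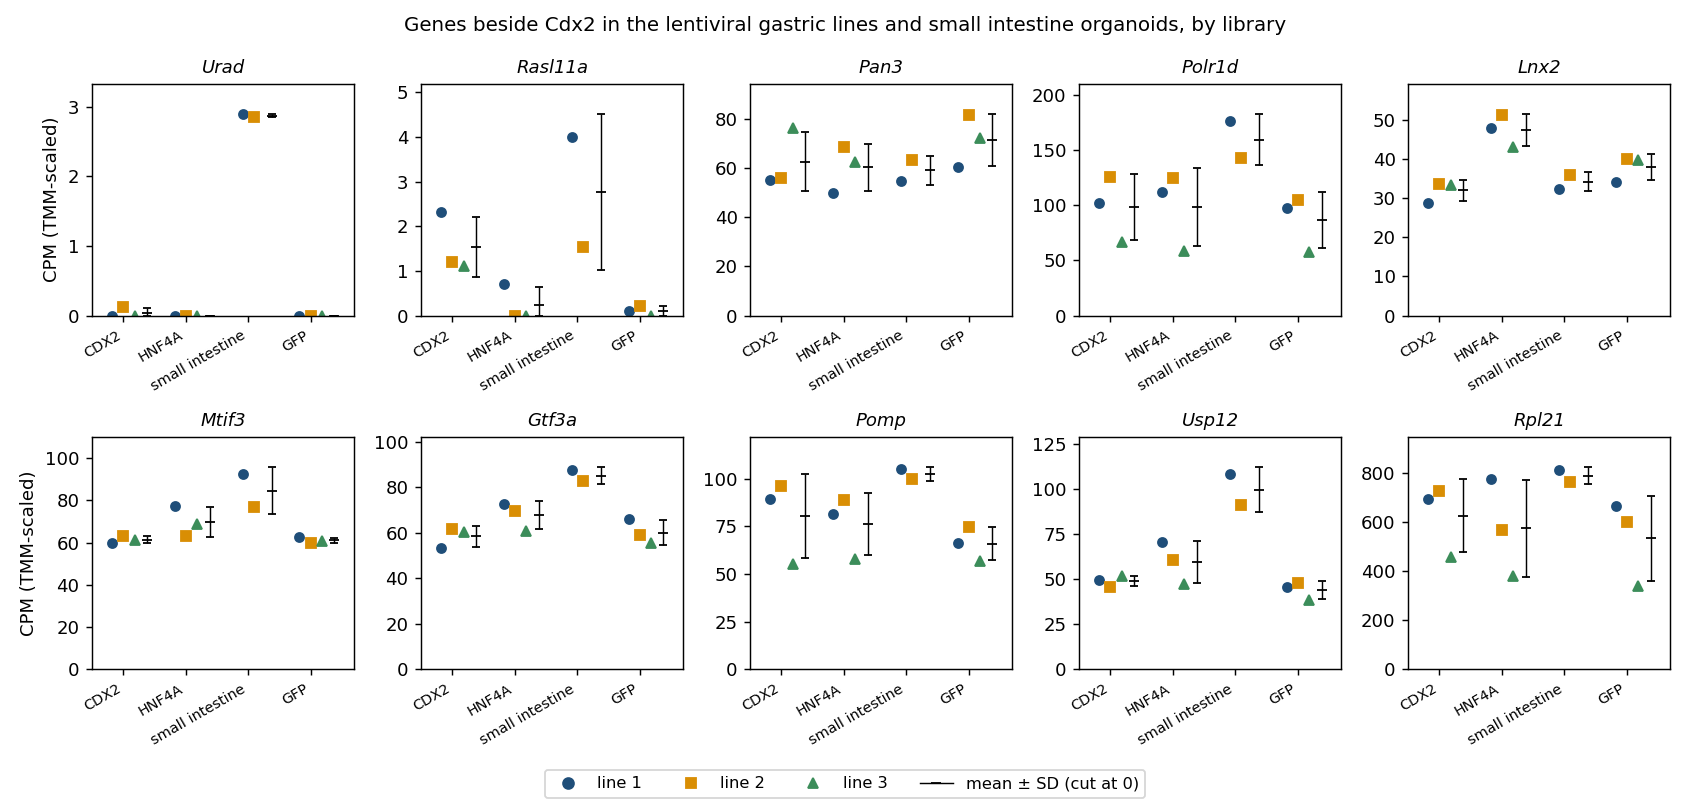
Level of each of the 10 neighbours in CPM scaled by TMM factors (y axis, from 0) in CDX2, HNF4A, small intestine and GFP organoids (x axis). Each symbol is a library, numbered by line, and bars give the mean and SD, cut at 0; Urad is near 0 in the 9 gastric libraries and at 2.89 and 2.85 CPM in small intestine, and line 3 is lowest in each gastric group for Polr1d, Pomp and Rpl21.

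Urad had at most 1 count in every gastric library. It had 0, 1 and 0 counts in the CDX2 lines and 0 in each HNF4A library, with 31 and 26 counts in small intestine organoids (2.89 and 2.85 CPM), against 0 in each GFP library. Set against 3 counts over the GFP group, small intestine organoids were at least 25.8-fold higher, and the adjusted p was 0.0133 in edgeR. Urad passed the filter on low counts through its small intestine values alone, so its call carries no weight in the count of 5, and Rasl11a passed through the groups where it is high. Of the 3 other genes tested in its pathway, edgeR called 0 higher and 1 lower. Xdh, the xanthine dehydrogenase that makes urate, fell, with a log2 fold change of -1.85 ± 0.40 (adjusted p = 0.0102, edgeR), and Uox, the urate oxidase upstream of Urad, had one of -1.39 ± 1.66 at a mean of 0.523 CPM (not called). Urah, whose enzyme acts between those of Uox and Urad, had one of 0.13 ± 0.42 (not called).

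Rasl11a was the other gene with few counts, and its 57 counts in small intestine organoids against 3 in the GFP lines gave a ratio of 25.8 (95% counting interval 8.39 to 129), with an adjusted p of 0.0317 in edgeR. The small intestine libraries differed between themselves, with 4.005 and 1.54 CPM. Its paralog Rasl11b had a log2 fold change of -0.46 ± 0.46 (not called).

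Gtf3a and Mtif3, which may share reads, both rose. Gtf3a had 53.2, 61.8 and 60.3 CPM in the CDX2 lines, 72.85, 69.8 and 61.0 CPM in the HNF4A lines and 87.65 and 82.6 CPM in small intestine organoids, against 65.8, 59.0 and 55.4 CPM in the GFP lines. Its log2 fold change for small intestine over GFP was 0.50 ± 0.15, with an adjusted p of 0.0335 in edgeR. Mtif3 had 59.7, 63.2 and 61.2 CPM in the CDX2 lines, 77.15, 63.2 and 68.7 CPM in the HNF4A lines and 92.3 and 76.7 CPM in small intestine organoids, against 62.4, 59.96 and 60.6 CPM in the GFP lines. Its log2 fold change was 0.47 ± 0.15, with an adjusted p of 0.0387 in edgeR. Of the 11 other factors of RNA polymerase III, the list for Gtf3a, edgeR called 1 higher (Bdp1, 0.63 ± 0.19) and none lower, with a median log2 fold change of 0.20. Of the 9 other factors of mitochondrial translation it called 4 higher (Tufm, Gfm1, Gfm2 and Tsfm, from 0.62 to 1.28) and 1 lower (Mrrf, -0.50), with a median of 0.61. The median over all genes was -0.01, and edgeR called 14.2% of all genes as higher.

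Those calls depended on single libraries. Without small intestine line 1, edgeR called 1 of the 10 neighbours, Usp12, and 833 genes in all, against 5 neighbours and 3448 genes with it. The adjusted p-values were then 0.0775 for Urad, 0.193 for Rasl11a, 0.184 for Gtf3a and 0.286 for Mtif3. Without GFP line 1, 2 or 3 it called 3, 2 and 2 of the 10, and without HNF4A line 2 it called 3. With only the small intestine and GFP libraries in the fit it called 3 of the 10. Over all genes, the number called stayed within 1.5-fold of 3448 in 15 of the 17 other settings run.

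Polr1d, Pomp and Rpl21 lay higher in small intestine than in all GFP libraries without being called. For small intestine over GFP, log2 fold changes were 0.88 ± 0.37 for Polr1d, 0.64 ± 0.26 for Pomp and 0.56 ± 0.36 for Rpl21, with adjusted p-values of 0.099, 0.0883 and 0.256 in edgeR. In the order of genes just named, small intestine values were 176 and 143 CPM, 105 and 99.98 CPM, and 814 and 766 CPM. With Urad and Rasl11a set aside, 6 of 8 neighbours were higher in both small intestine libraries than in all GFP libraries, against 30.4% of all genes. EdgeR called 3 of these 8 higher (among them Gtf3a and Mtif3, which may share reads), where it called 14.2% of all genes as higher. In their complexes, edgeR called 18 of 40 proteasome genes higher (median log2 fold change 0.59), among them Psmd14 (0.91 ± 0.16), the core subunit Psmb3 (1.07 ± 0.23) and the assembly chaperone Psmg3 (1.40 ± 0.30). It called 5 of 23 subunits of RNA polymerases I and III higher (median 0.60), among them Polr1e (1.52 ± 0.29) and Polr3g (1.51 ± 0.32), and 1 of 76 ribosomal protein genes, Rps2 (median 0.53). None in these 3 lists was called lower, and with median-of-ratios scaling the medians were 0.57, 0.58 and 0.51.

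These 3 genes also differed by line number. Polr1d was at 66.7, 58.5 and 57.7 CPM in line 3 of the CDX2, HNF4A and GFP groups, against 97.0 to 126 CPM in lines 1 and 2. Pomp was at 55.4 to 57.8 CPM in line 3 and at 66.2 to 96.3 CPM in lines 1 and 2. Rpl21 was at 339 to 456.5 CPM in line 3 and at 568 to 777 CPM in lines 1 and 2. In each of the 3 genes, line 3 was therefore the lowest of its group in all 3 gastric groups. Total counts were also lowest in line 3 of each gastric group, and its gastric marker sum was the highest (13850 CPM in GFP line 3, against 3688 and 7750 CPM in GFP lines 1 and 2); their part in the pattern was not tested.

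Pan3 and Lnx2 did not follow the others in small intestine organoids. Pan3 had 55.3, 56.1 and 76.4 CPM in the CDX2 lines, 49.96, 68.6 and 62.6 CPM in the HNF4A lines and 54.9 and 63.2 CPM in small intestine organoids, against 60.5, 81.65 and 72.3 CPM in the GFP lines. Log2 fold changes for small intestine over GFP were -0.28 ± 0.21 for Pan3 and -0.15 ± 0.17 for Lnx2, and the groups overlapped in both. The catalytic partner of Pan3, Pan2, had -0.17 ± 0.24. Among the partners of Lnx2, its paralog Lnx1 had 0.34 ± 0.21, while Pdzrn3 (-6.99 ± 0.82) and Numbl (-3.60 ± 0.39) were called lower by edgeR. On the same stretch of chromosome, Pdx1 and Slc46a3 fell in small intestine organoids, with log2 fold changes of -1.46 ± 0.43 and -2.45 ± 0.57 and adjusted p-values of 0.0325 and 0.0135 in edgeR. Genes within 1 Mb of Cdx2 were thus called in both directions.

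A comparison of small intestine organoids with the CDX2 lines, added after the values were seen, set the neighbours side by side in cells where Cdx2 was present in both groups (log2 fold change of Cdx2 0.60 ± 0.55, adjusted p = 0.502, edgeR). Of the 10, edgeR called 3, all higher, where it called 5.63% of all genes as higher and 11.3% in either direction. They were Usp12 (1.03 ± 0.19, adjusted p = 0.0136), Gtf3a (0.54 ± 0.15, adjusted p = 0.0457) and Urad (57 counts against 1, a ratio of 70.6 with a counting interval from 12.2 to 2835, adjusted p = 0.0386). Urad passed the filter through small intestine alone, and with it and Rasl11a set aside edgeR called 2 of 8. With only these groups in the fit 0 of 10 were called, and without small intestine line 1 likewise 0. Rasl11a had 40 counts over 3 CDX2 libraries and 57 over 2 small intestine libraries, and its log2 fold change was 0.83 ± 1.10 (adjusted p = 0.648).

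Across the 11 libraries of the lines, the tested gene outside the 10 neighbours most like Polr1d was Gadd45gip1 (Pearson r = 0.989, Spearman rho = 0.973). The gene most like Usp12 was Aarsd1 (0.959 and 0.909), and that most like Mtif3 was Fastkd2 (0.962 and 0.836). Across the 9 libraries of the enhancer experiment, Pan3 was most like Plekha5 (0.986 and 0.967), Pomp most like Ap1s1 (0.975 and 0.983) and Rpl21 most like Apool (0.965 and 0.967). Each of these genes is the best match out of all genes tested, the libraries share group, line and depth, and the correlations are a description only. Among the neighbours themselves, the median Pearson r over the 28 pairs in the enhancer experiment was 0.203, with 20 pairs above 0, and over the 45 pairs in the lines it was 0.572, with 31 above 0.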

How the data were processed

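The members and gene lists were chosen with earlier results of these data known. Values are raw counts as the authors deposited them, 1 per gene symbol and library. Per the submitters' processing notes, STAR and mm10 apply to both experiments, and Bowtie2, Cell Ranger and hg19 are named without a role for the lines. Per the labels' protocols, RNA was extracted with Trizol, poly-A libraries were made and paired ends were sequenced. No source used here states the counting program, strand setting or annotation. The source field of the lentiviral lines names small intestine while title and tissue tag name gastric organoids; the titles were followed. Samples of other assays were not analysed here.

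Each experiment was fitted alone in R 4.3.3 by the robust quasi-likelihood test of edgeR 4.0.16 (TMM factors, two-sided, groups of the experiment sharing one estimate of the spread). The filter was filterByExpr (minimum count 10, minimum total 15); 12593 genes of the enhancer experiment passed it, as did 12720 of the lines. A gene is called at a Benjamini-Hochberg adjusted p under 0.05 over all genes tested. Standard errors are the log2 fold change over the square root of F, and intervals are 95%. DESeq2 1.42.0, limma 3.58.1 (voom) and the settings named in the closing section were alternatives. The scripts were tested on simulated data. The chi-square per degree of freedom between replicates ran from 21.7 to 84.1, so spread between libraries exceeded counting error. Counting intervals and floors reflect counting error alone, as reads had no molecular identifiers.

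Same-numbered libraries were compared by the correlation of their deviations from group means. In the lines it was 0.363 to 0.785 in the 9 pairs among gastric groups, and in the enhancer experiment 0.246 to 0.517 in the 3 pairs of homozygous and heterozygous libraries, so numbers were taken to pair those samples. The main fits had no block, so their standard errors, intervals and p-values leave this pairing out. With the block, 0 neighbours were called for homozygous over heterozygous. Pairs with wild type (-0.336 to 0.264) or small intestine (-0.144 to 0.121) did not meet the rule of every pair above 0.1. Named genes are all 10 neighbours, Cdx2, all genes of the table within 1 Mb, the most abundant, called or directly related genes of each list, and the best match of each neighbour by Pearson r of log2 CPM (prior count 2); some of these matches are not reported here. The comparisons of small intestine and of HNF4A with the CDX2 lines were added after the values were seen. Gene positions and promoters are from RefSeq (GRCm38.p6), matched by symbol; 18898 of 19733 symbols matched. The 18 gene lists held 273 symbols, of which 265 are in the table.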

Additional observations from a re-analysis of the deposited data

How the results depend on the processing

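Counts of genes called depended on the tool, the block, the groups fitted and single libraries. With DESeq2 they were 180 for homozygous over wild type, 327 for heterozygous over wild type, 1 for homozygous over heterozygous and 21 for the fit on deleted copies, against 0 in edgeR, 493 for CDX2 over GFP (52 in edgeR), 221 for HNF4A over GFP (18), 2675 for small intestine over CDX2 (1437) and 139 for HNF4A over CDX2 (3), where it also called 1 neighbour. Limma voom called 4 for CDX2 over GFP and 5 for HNF4A over GFP. With only the groups compared, counts were 14 for CDX2 over GFP, 70 for small intestine over CDX2 and 0 for HNF4A over CDX2, and the neighbours called were 3 for small intestine over GFP and 0 for small intestine over CDX2. With the replicate block, counts were 5 and 51 for homozygous and heterozygous over wild type, 578 for CDX2 over GFP, 100 for HNF4A over GFP, 2942 for small intestine over CDX2 and 28 for HNF4A over CDX2; beyond those, the block called 7 neighbours for small intestine over GFP in place of 5, though numbers do not pair wild-type or small intestine libraries. Leaving out 1 library at a time, genes called ran from 11 to 107 for CDX2 over GFP, 4 to 38 for HNF4A over GFP, 833 to 3619 for small intestine over GFP, 103 to 1401 for small intestine over CDX2 and 0 to 8 for HNF4A over CDX2, and neighbours called from 1 to 6 for small intestine over GFP and 0 to 3 for small intestine over CDX2. Leaving out a small intestine line leaves 1 library, assumed to vary like the other groups. The cause of these differences was not tested.

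Of 81 fold changes of neighbours, 36 kept direction and side of the threshold in all settings and 34 changed sign in at least 1 setting. Over 1333 settings, 1214 were the same, 70 reversed, 43 lost and 6 gained a call. Usp12 for small intestine over GFP kept its call in every setting run. Rpl21 stayed below 0 in every setting, from -0.48 to -0.27 for homozygous and from -0.44 to -0.25 for heterozygous over wild type. Leaving out the 3 libraries richest in fibroblast transcripts, which leaves 1 heterozygous library, turned Pan3 to -0.06 for homozygous over wild type and -0.02 per copy. For heterozygous over wild type it turned Pan3 to 0.37, Polr1d to 0.08, Lnx2 to 0.07 and Gtf3a to -0.07. For homozygous over heterozygous it turned Pan3 to -0.44, Polr1d to -0.16, Gtf3a to 0.06, Pomp to 0.30 and Usp12 to 0.02. Mtif3 for CDX2 over GFP was 0.00 with median-of-ratios scaling and with DESeq2, and Polr1d for HNF4A over CDX2 was -0.03 with limma voom, -0.01 without the filter and -0.02 with the block. 

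Ranges on leaving out 1 library each, where a sign changed, were as follows. For homozygous over wild type they were -0.08 to 0.14 for Pan3, -0.15 to 0.01 for Polr1d, -0.15 to 0.01 for Mtif3 and -0.11 to 0.03 for Gtf3a. For heterozygous over wild type they were -0.29 to 0.08 for Pan3 and -0.04 to 0.11 for Gtf3a. For homozygous over heterozygous they were -0.05 to 0.34 for Pan3, -0.03 to 0.18 for Polr1d, -0.04 to 0.11 for Mtif3, -0.11 to 0.11 for Pomp, -0.15 to 0.03 for Usp12 and -0.09 to 0.08 for Rpl21. Per copy they were -0.04 to 0.07 for Pan3, -0.06 to 0.01 for Polr1d, 0.00 to 0.09 for Lnx2 and -0.06 to 0.01 for Gtf3a. For CDX2 over GFP they were 0.00 to 2.49 for Urad, -0.04 to 0.39 for Polr1d, -0.01 to 0.03 for Mtif3, -0.10 to 0.03 for Gtf3a and -0.01 to 0.42 for Rpl21. For HNF4A over GFP they were -3.12 to 1.84 for Rasl11a, -0.04 to 0.45 for Polr1d and -0.17 to 0.33 for Rpl21. For small intestine over CDX2 they were -0.01 to 1.36 for Rasl11a and -0.19 to 0.08 for Pan3. For HNF4A over CDX2 they were -2.49 to 0.00 for Urad, -0.14 to 0.12 for Pan3, -0.21 to 0.26 for Polr1d, -0.29 to 0.08 for Pomp and -0.40 to 0.10 for Rpl21. Depth limits Urad and Rasl11a, whose counts in the stomach organoids were too low to test.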
